A study of Homo sapiens with 12 samples.

Results

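The comparison described here sets cells given Wnt3a directly against cells given Wnt5a, with 3 arrays for each ligand, or 6 of the 12 arrays of the series. CHRF288-11, a human megakaryoblastic cell line, was kept without serum for 16 h and then treated for 8 h. Wnt3a was given at 150 ng/mL and Wnt5a at 1200 ng/mL. The other 6 arrays were 3 of cells given both ligands at these doses and 3 of untreated cells, and they entered the same fit. The series calls its arrays biological replicates. The arrays were chosen by their titles alone, and all genes detected were then described. Only 1 dose of a ligand was used and the labels name no vehicle group, so in every difference below the ligand and the amount of protein cannot be told apart.

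Wnt ligands are secreted proteins that bind Frizzled receptors. Wnt3a is the standard canonical ligand: together with the co-receptors LRP5 and LRP6 it keeps beta-catenin from being degraded, and beta-catenin then joins TCF and LEF factors on target genes, among them the genes of its own feedback inhibitors. Wnt5a is the standard non-canonical ligand, which acts through Frizzled and ROR receptors on calcium, NFAT factors, small GTPases and cell polarity proteins, and in many cells it opposes beta-catenin signalling.

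Total RNA was measured on Illumina BeadChips with 48803 probes an array. The Wnt3a arrays had mean signals of 345.7 to 376.1 and 12894 to 13789 detected probes, and the Wnt5a arrays had mean signals of 326.5 to 367.8 and 13332 to 14088 detected probes. Each ligand had 2 arrays on the first BeadChip and 1 on the second, and the number of arrays limits the precision. Of 10 megakaryocyte markers, 8 were detected on all 6 arrays, among them GP9, ITGA2B and GATA1, whereas PF4 and PPBP, which encode platelet granule chemokines, were detected on 0. SLC4A1 of red cells, MPO, ELANE and S100A8 of granulocytes and CD3D, CD3E and MS4A1 of lymphocytes were also detected on 0 of 6, while HBB, ALAS2, LYZ and CD79A were detected on all 6. Of the tested markers, only GFI1B passed the threshold between the ligands. In RNA of whole cultures, fewer cells that express a gene and less of its RNA per cell cannot be told apart.

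Cells given Wnt3a and cells given Wnt5a differed in a limited set of genes, and most of those differences were small. Of 14051 probes tested, 829 (5.9%) passed an adjusted p under 0.05 in limma, 363 higher with Wnt3a (2.58%) and 466 lower (3.32%). Among these the median absolute log2 difference was 0.41, against 0.09 over all tested probes, and a change of 2-fold or more was reached by 15 probes higher and 24 lower with Wnt3a. Counted as genes by their brightest probe, 659 of 10103 (6.52%) passed, 279 higher (2.76%) and 380 lower (3.76%). The count moved with single arrays: it was 437, 513 and 535 without Wnt3a replicate 1, 2 and 3, and 753, 502 and 422 without Wnt5a replicate 1, 2 and 3. Of the 829 probes, 344 passed without any 1 of the 12 arrays. Correlations over tested probes were 0.994 to 0.997 between arrays of 1 ligand and 0.989 to 0.995 between arrays of different ligands.

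**Figure D1:**
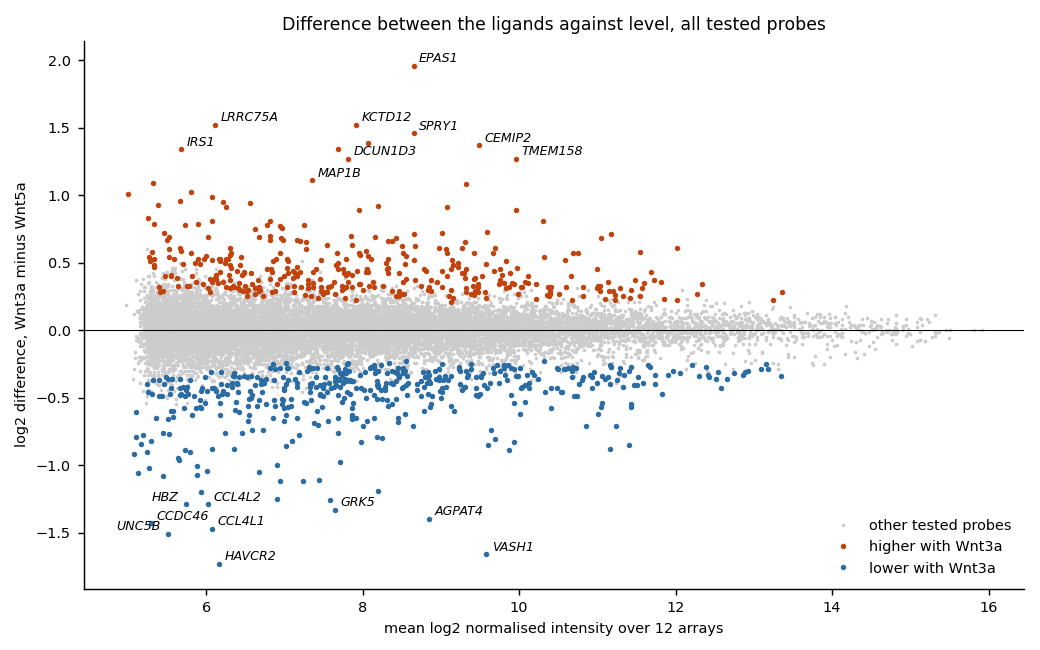
Log2 difference between the ligands (y axis, Wnt3a minus Wnt5a) against mean log2 normalised intensity (x axis) for 14051 tested probes. Coloured points are the 363 probes higher and the 466 probes lower with Wnt3a, and symbols mark the largest, which run from 1.96 for EPAS1 to -1.73 for HAVCR2.

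Cells given Wnt3a had more EPAS1, the oxygen-regulated transcription factor HIF-2alpha, than cells given Wnt5a, and this was the largest difference among named genes in either direction. SPRY1, a feedback inhibitor of receptor tyrosine kinases, KCTD12, an auxiliary subunit of GABA-B receptors, and TMEM158, a membrane protein induced by active RAS, were also among the 15 largest differences higher with Wnt3a. Log2 levels of EPAS1 were 9.76, 9.69 and 9.72 on the Wnt3a arrays and 7.72, 7.84 and 7.73 on the Wnt5a arrays. The log2 difference was 1.96 ± 0.06 (SE, 3 arrays each), or 3.88-fold, with an adjusted p of 4.37e-09. The ligands did not overlap after adjustment for the BeadChip, which was a condition for these 15 genes. That holds for 26.2% of all tested probes and for all 829 that passed. The untreated arrays (8.19, 8.27 and 8.22) lay between the ligands. SPRY1 stood at 9.59, 9.31 and 9.39 with Wnt3a and at 7.97, 8.01 and 7.93 with Wnt5a, a difference of 1.46 ± 0.09 (adjusted p = 1.8e-06). All 3 SPRY1 probes passed, at 1.34 to 1.46.

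KCTD12 measured 8.80, 9.05 and 8.77 with Wnt3a and 7.18, 7.57 and 7.31 with Wnt5a, 2.87-fold higher with Wnt3a (adjusted p = 1.51e-05). CEMIP2, a membrane protein linked to hyaluronan breakdown, measured 10.23, 10.12 and 10.21 with Wnt3a and 8.88, 8.93 and 8.63 with Wnt5a, 2.59-fold higher (adjusted p = 3.54e-06). TMEM158 measured 10.57, 10.74 and 10.62 with Wnt3a and 9.36, 9.24 and 9.54 with Wnt5a, 2.40-fold higher (adjusted p = 1.48e-06). In each of these genes the gap between the lowest Wnt3a array and the highest Wnt5a array was wider than the range within either ligand. MAP1B, which binds microtubules, measured 8.08, 8.03 and 7.96 with Wnt3a and 6.67, 7.17 and 6.89 with Wnt5a by its brighter probe, 2.17-fold higher (adjusted p = 1.42e-05). Its dimmer probe was detected on 3 Wnt3a and 0 Wnt5a arrays and was at least 1.43-fold higher (adjusted p = 0.000604).

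IRS1, the docking protein of the insulin and IGF1 receptors, was detected on 3 of 3 Wnt3a arrays (6.43, 6.42 and 6.27) and on 0 of 3 Wnt5a arrays (5.22, 4.80 and 5.09). It was at least 2.01-fold higher with Wnt3a (adjusted p = 3e-05). Such a bound takes the dim group at the lowest signal that counted as well above background on its arrays. It carries no error and holds only for the processing used here. Without background correction IRS1 differed by 0.67 in log2, and in the authors' deposited table by 0.32, both smaller than its bound. CITED4, a cofactor of the acetyltransferases CBP and p300, was also detected on 3 Wnt3a and 0 Wnt5a arrays and was at least 1.21-fold higher (adjusted p = 8.05e-05). BACH2, a transcriptional repressor best known from lymphocytes, was detected on 3 Wnt3a and 1 Wnt5a arrays and differed by 0.96 ± 0.11 (adjusted p = 0.000261). The others of these 15 were LRRC75A (1.52), the cullin neddylation regulator DCUN1D3 (1.27), MMD (1.08), the integrin activator FERMT1 (1.02), C14ORF139 (0.99) and the SNARE-binding protein STXBP6 (0.95), all in log2. LRRC75A and FERMT1 were detected on 3 Wnt3a and 2 Wnt5a arrays.

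**Figure D2:**
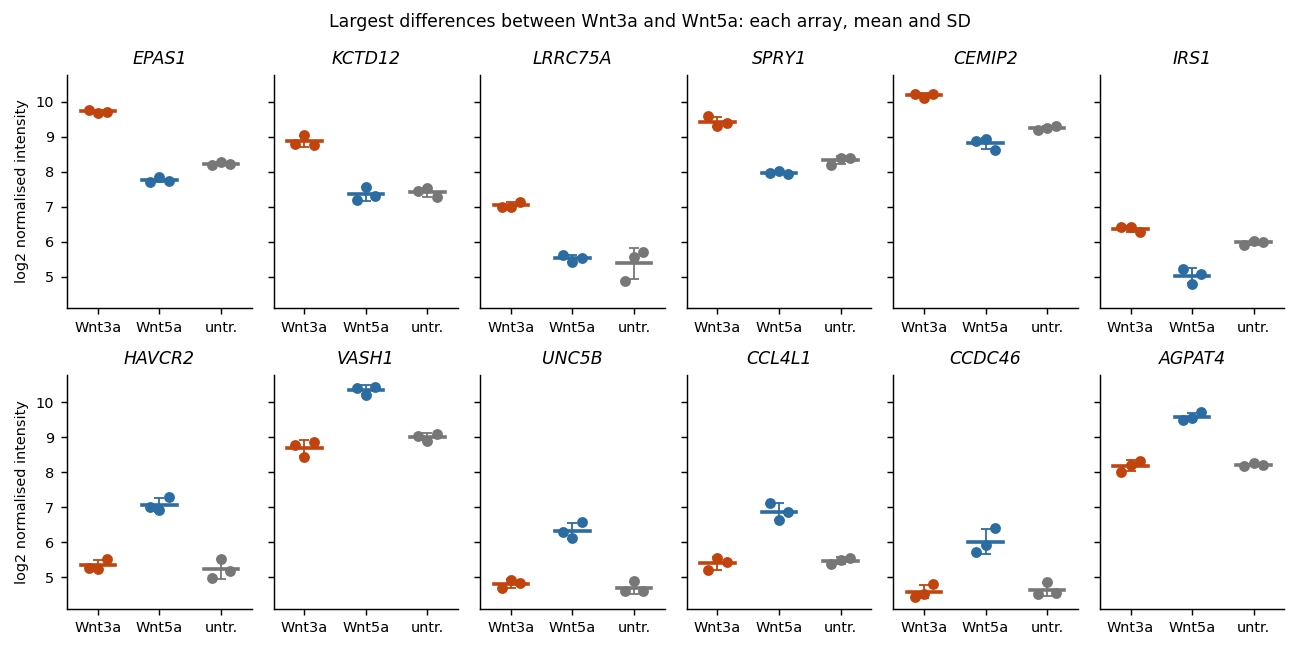
Log2 normalised intensity (y axis) of the 6 largest differences higher with Wnt3a (top) and the 6 largest lower with Wnt3a (bottom), 1 point per array, with mean and SD of 3 arrays for Wnt3a, Wnt5a and untreated cells (untr.). The genes were chosen for points that do not overlap between the ligands, and EPAS1 has the widest gap (9.76, 9.69 and 9.72 with Wnt3a, 7.72, 7.84 and 7.73 with Wnt5a).

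Lower with Wnt3a, and so higher with Wnt5a, were an immune receptor, chemokines, and genes that act on G protein signalling. HAVCR2, the inhibitory immune receptor TIM-3, measured 5.26, 5.23 and 5.52 on the Wnt3a arrays, where it was detected on 1, and 7.01, 6.91 and 7.29 on the Wnt5a arrays. The log2 difference was -1.73 ± 0.13 (SE, 3 arrays each; adjusted p = 9.18e-06). VASH1, a tubulin carboxypeptidase known as an inhibitor of blood vessel growth, measured 8.78, 8.44 and 8.86 with Wnt3a and 10.40, 10.21 and 10.44 with Wnt5a, 3.15-fold lower with Wnt3a (adjusted p = 3.61e-06). These genes too were chosen for not overlapping. AGPAT4, an acyltransferase that makes phosphatidic acid, measured 8.01, 8.20 and 8.32 with Wnt3a and 9.50, 9.54 and 9.71 with Wnt5a, 2.65-fold lower (adjusted p = 1.48e-06).

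UNC5B, a netrin receptor, was detected on 0 of 3 Wnt3a arrays (4.68, 4.93 and 4.83) and 3 of 3 Wnt5a arrays (6.28, 6.11 and 6.56), at least 1.89-fold lower with Wnt3a (adjusted p = 3.45e-06). HBZ, the embryonic zeta-globin, was detected on 0 Wnt3a arrays (5.11, 5.32 and 4.92) and 3 Wnt5a arrays (6.51, 6.08 and 6.63), at least 2.00-fold lower (adjusted p = 7.89e-05). CCDC46, so named in the deposited file, was detected on 0 Wnt3a and 3 Wnt5a arrays and was at least 1.53-fold lower (adjusted p = 0.000338). All of these were detected on 0 of 3 untreated arrays as well. HIP1R, which links clathrin coats to actin, was 2.39-fold lower with Wnt3a (adjusted p = 1.8e-05), and AIM2, a sensor of DNA in the cytosol, was 2.17-fold lower (adjusted p = 6e-05). SAMD11 was detected on 0 Wnt3a and 2 Wnt5a arrays, at least 1.24-fold lower (adjusted p = 0.00407).

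The sizes of these differences, those given as bounds included, depended on the processing. In the authors' deposited table of log2 values, the 15 differences higher with Wnt3a ran from 0.20 for CITED4 to 1.42 for EPAS1, and the 15 lower from -1.38 for VASH1 to -0.22 for SAMD11, and limma called all 30 there. GRK5, detected on all arrays of both ligands, differed by -1.33 as fitted here, by -1.03 without background correction and by -0.72 in that table, and TMEM158 by 1.27, 1.2 and 1.12. The deposited table may differ in more than background, since its steps are not given in the sources used here. Of 119 named genes that passed, 65 had a difference over 1.5 times smaller in the deposited table and 29 without background correction, and 0 had one over 1.5 times larger in either.

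Against untreated cells, 13 of the 15 genes higher with Wnt3a were above them with Wnt3a at the threshold, and 7 of the 15 were below them with Wnt5a. All 15 genes lower with Wnt3a were above them with Wnt5a. The untreated arrays are shared by both values of a gene. The genes were chosen on these same Wnt3a and Wnt5a arrays, so the counts are not independent of the choice. CITED4, among the 13, was tested only through the Wnt3a arrays. The 15 genes higher with Wnt3a were 0.19 to 1.66 above untreated cells with Wnt3a (median 0.94, log2) and -0.95 to 0.31 from them with Wnt5a (median -0.35). EPAS1 was at 1.5 with Wnt3a (adjusted p = 1.05e-07) and at -0.46 with Wnt5a (adjusted p = 0.00066). SPRY1 was at 1.11 with Wnt3a (adjusted p = 3.26e-05) and at -0.35 with Wnt5a (adjusted p = 0.0311), so both genes passed in opposite directions. KCTD12 was at 1.46 with Wnt3a (adjusted p = 5.39e-05) and at -0.06 with Wnt5a (adjusted p = 0.855). IRS1 was at 0.39 with Wnt3a (adjusted p = 0.154), while with Wnt5a, where it was not detected, it was below untreated cells (adjusted p = 0.000544).

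The 15 genes lower with Wnt3a were -0.31 to 0.21 from untreated cells with Wnt3a (median -0.05), and 0.82 to 1.85 above them with Wnt5a (median 1.26). None of these 15 passed the threshold with Wnt3a against untreated cells, and all 15 passed with Wnt5a. VASH1 was at -0.31 with Wnt3a (adjusted p = 0.246) and at 1.34 with Wnt5a (adjusted p = 2.78e-05). GRK5, a kinase that turns off activated G protein-coupled receptors, was at -0.26 with Wnt3a (adjusted p = 0.218) and at 1.06 with Wnt5a (adjusted p = 3.09e-05). Over all tested probes, 1.52% passed with Wnt3a against untreated cells and 5.25% passed with Wnt5a.

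In cells given both ligands, the 15 genes lower with Wnt3a differed from the Wnt5a arrays by -0.30 to 0.14 in log2, 0 of them past the threshold, and from the Wnt3a arrays by 0.82 to 1.87, all 15 past it. The 15 genes higher with Wnt3a lay between the ligands. They differed from the Wnt3a arrays by -0.95 to -0.17, with 11 past the threshold, and from the Wnt5a arrays by 0.39 to 1.17, with 8 past it. EPAS1 with both ligands was at -0.87 from Wnt3a alone (adjusted p = 6.51e-05) and at 1.08 from Wnt5a alone (adjusted p = 2.49e-05). All 3 arrays of the combination were on the second BeadChip, and these values share their single-ligand arrays with the comparison that chose the genes. The share of all tested probes past the threshold in these comparisons is not given here, so the counts have no background to be read against. KCTD12 at 0.65 from Wnt5a alone did not pass (adjusted p = 0.169), so a count of 0 does not show that the combination equals Wnt5a.

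**Figure D3:**
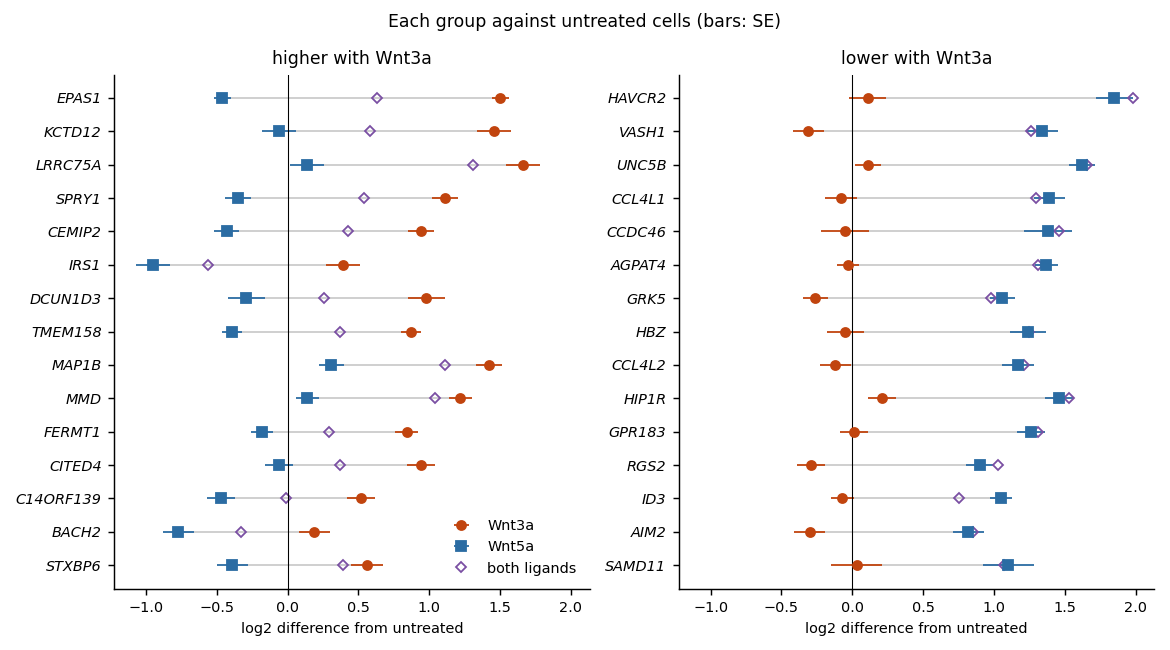
Log2 difference from untreated cells (x axis) of the 15 largest differences higher (left) and lower (right) with Wnt3a, for Wnt3a (circles), Wnt5a (squares, both with SE bars) and both ligands (open diamonds). On the right the circles lie between -0.31 and 0.21 and the squares between 0.82 and 1.85, and on the left the diamonds lie between circles and squares.

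Within each BeadChip the 30 genes kept their direction. They were chosen on these same arrays, so their sign on a BeadChip is not independent of the choice. The 15 genes higher with Wnt3a differed by 0.82 to 1.98 on the first BeadChip, 2 arrays against 2, and by 0.65 to 1.91 on the second, 1 array against 1. The 15 lower differed by -1.77 to -1.15 on the first and by -1.65 to -0.72 on the second. A limma test of whether the difference itself changed with the BeadChip called 0 of 14051 probes, with a smallest adjusted p of 0.575, 1057 probes at an unadjusted p under 0.05 and 3 residual degrees of freedom. With so few degrees of freedom, that test says little about likeness. On the first BeadChip alone, 313 probes passed between the ligands. Of 119 named genes past the threshold, 13 had a difference over 1.5 times smaller and 2 over 1.5 times larger on the second BeadChip alone.

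**Figure D4:**
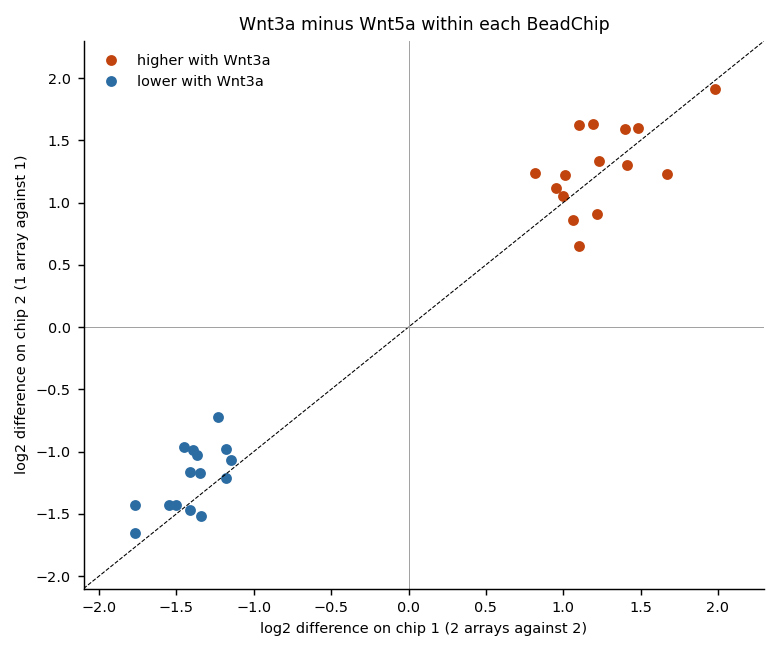
Log2 difference, Wnt3a minus Wnt5a, on the first BeadChip (x axis, 2 arrays against 2) and on the second (y axis, 1 array against 1) for the 15 largest differences in each direction. The dashed line marks equal values, and every gene has the same sign on both, with EPAS1 at 1.98 and 1.91.

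Genes of the Wnt feedback loop differed between the ligands in both directions. The shares past the threshold were 50% of 8 tested feedback genes, 26.1% of 23 canonical targets, 25% of 12 ligands and receptors, 14.7% of 34 non-canonical components and 0% of 31 genes of the beta-catenin machinery, against 6.52% of all tested genes. These lists were chosen with earlier results of these data known, so their shares are not independent of that choice. Of 29 feedback genes, 8 were detected on enough arrays to be tested, and 2 were higher and 2 lower with Wnt3a, as many as without any 1 of the arrays. NKD1, an inhibitor that binds Dishevelled, was detected on 3 of 3 Wnt3a arrays (5.55, 6.04 and 5.84) and 0 of 3 Wnt5a arrays (5.27, 5.20 and 5.17), at least 1.36-fold higher with Wnt3a (adjusted p = 0.00266). TNFRSF19, a receptor of the tumour necrosis factor family and a known beta-catenin target, measured 8.47, 8.38 and 8.38 with Wnt3a and 7.64, 7.43 and 7.50 with Wnt5a (0.89 ± 0.09, adjusted p = 7.14e-05). Against untreated cells TNFRSF19 was at 0.30 with Wnt3a (adjusted p = 0.134) and at -0.59 with Wnt5a (adjusted p = 0.00174).

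NKD2, the paralog of NKD1, measured 6.94, 7.31 and 7.08 with Wnt3a and 7.70, 7.55 and 7.63 with Wnt5a, a difference of -0.52 ± 0.08 (adjusted p = 0.00179). CXXC5, which binds Dishevelled and restrains canonical signalling, measured 10.48, 10.45 and 10.40 with Wnt3a and 11.16, 11.11 and 11.19 with Wnt5a (-0.71 ± 0.06, adjusted p = 3.66e-05). Wnt3a was the lower ligand in both. CXXC5 passed against untreated cells in opposite directions, at -0.38 with Wnt3a (adjusted p = 0.00861) and 0.32 with Wnt5a (adjusted p = 0.0104). The ubiquitin ligase ZNRF3 (0.18, adjusted p = 0.481), the Dickkopf receptor KREMEN1 (-0.01, adjusted p = 0.984), and the Dishevelled antagonists DACT1 (0.02, adjusted p = 0.966) and DACT3 (-0.06, adjusted p = 0.862) did not pass. Their 95% intervals were -0.07 to 0.43 for ZNRF3, detected on 1 Wnt3a and 0 Wnt5a arrays, -0.26 to 0.25 for KREMEN1, -0.25 to 0.29 for DACT1 and -0.30 to 0.19 for DACT3.

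Of 23 tested genes listed as canonical targets, 3 were higher and 3 lower with Wnt3a, with a median difference of -0.01 against 0.00 over all tested genes. The split was not stable: 6 were higher and 2 lower in the deposited table, and 5 were higher without Wnt5a replicate 1 or combination replicate 2. LEF1, the DNA-binding partner of beta-catenin, measured 9.54, 9.49 and 9.53 with Wnt3a and 8.95, 9.11 and 8.98 with Wnt5a (0.50 ± 0.07, adjusted p = 0.00164). The transcription factor MYCN measured 9.93, 9.99 and 9.95 with Wnt3a and 9.36, 9.59 and 9.43 with Wnt5a (0.49 ± 0.07, adjusted p = 0.00135). Both had 2 of 2 probes past the threshold. SOX4 (0.29, adjusted p = 0.0241) lost its call without any 1 of the 6 Wnt3a and Wnt5a arrays (adjusted p = 0.0516 to 0.108). The lower genes were the matrix protein CCN1 (-0.32, adjusted p = 0.0478), ID2 (-0.28, adjusted p = 0.0274) and the drug exporter ABCB1 (-0.28, adjusted p = 0.0407), and 0 genes of the list were lower without Wnt3a replicate 1, Wnt3a replicate 3 or Wnt5a replicate 2. CCN1 also lost its call in the deposited table (adjusted p = 0.106) and in 18 of 25 settings in all. ABCB1 was named after its values were seen. CCND1, the cyclin D1 gene (0.45, adjusted p = 0.0593), and MYC (0.22, adjusted p = 0.0514) did not pass. Both passed without background correction, CCND1 at a difference of 0.24 (adjusted p = 0.0335) and MYC at 0.22 (adjusted p = 0.0167). In the deposited table MYC passed in limma (0.22, adjusted p = 0.00404) and CCND1 did not (0.12, adjusted p = 0.108).

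Of 12 tested Wnt ligands and receptors, 1 was higher and 2 lower with Wnt3a. LRP5, a co-receptor of canonical signalling, measured 7.24, 7.29 and 7.18 with Wnt3a and 7.94, 7.82 and 7.96 with Wnt5a by its brighter probe, a difference of -0.67 ± 0.07 (adjusted p = 9.87e-05). Its other probe differed by -0.11 and did not pass (adjusted p = 0.663). Against untreated cells LRP5 was at -0.02 with Wnt3a (adjusted p = 0.961) and at 0.65 with Wnt5a (adjusted p = 0.000177). WNT3 (-0.56, adjusted p = 0.013) lost its call without Wnt3a replicate 2 (adjusted p = 0.0656) or Wnt5a replicate 2 (adjusted p = 0.0581). The cells' own WNT5A (0.32, adjusted p = 0.0446) lost it without any 1 of 8 arrays, up to an adjusted p of 0.159 without Wnt3a replicate 3. The receptor LRP8, which is not on this list (-0.32, adjusted p = 0.00814) lost it without Wnt3a replicate 1 (adjusted p = 0.0578). FZD1, FZD2, FZD4, FZD6, FZD7, LRP10 and LRP11 did not pass, with differences of -0.10 (FZD2) to 0.09 (FZD7). Of 31 tested genes of the beta-catenin machinery 0 passed (4 at an unadjusted p under 0.05, and 1 in the deposited table), CTNNB1 (0.04, adjusted p = 0.84) and the scaffold AXIN1 (-0.05, adjusted p = 0.749) among them.

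Among 34 tested non-canonical components, 3 were higher and 2 lower with Wnt3a. NFATC1, a transcription factor switched on by calcium, measured 7.29, 7.25 and 7.43 with Wnt3a and 8.18, 7.97 and 8.09 with Wnt5a (-0.76 ± 0.08, adjusted p = 0.000129). Against untreated cells NFATC1 was at -0.11 with Wnt3a (adjusted p = 0.649) and 0.65 with Wnt5a (adjusted p = 0.000568). NFATC3 (0.11, adjusted p = 0.584) and NFAT5 (-0.04, adjusted p = 0.945) did not pass. The paralogous polarity genes PRICKLE1 (-0.47, adjusted p = 0.00244) and PRICKLE2 (0.48, adjusted p = 0.00747) differed in opposite directions. DAAM1, a formin that links Dishevelled to actin, was higher with Wnt3a (0.43, adjusted p = 0.00742), with its other probe at 0.38 (adjusted p = 0.203). PPP3R1, the regulatory subunit of calcineurin (0.34, adjusted p = 0.0211), lost its call without Wnt3a replicate 1 or 3 or Wnt5a replicate 2 or 3 (adjusted p = 0.0642 to 0.134).

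Of the genes past the threshold, those of amino acid stress were all higher with Wnt3a, and those of the chemokine and G protein signalling lists all lower. Over 33 lists with 840 tested entries, the share of genes past the threshold is set beside 6.52% over all tested genes, and the medians beside 0.00. The lists and their members were chosen with earlier results of these data known. A share above 6.52% is therefore not independent of that choice.

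**Figure D5:**
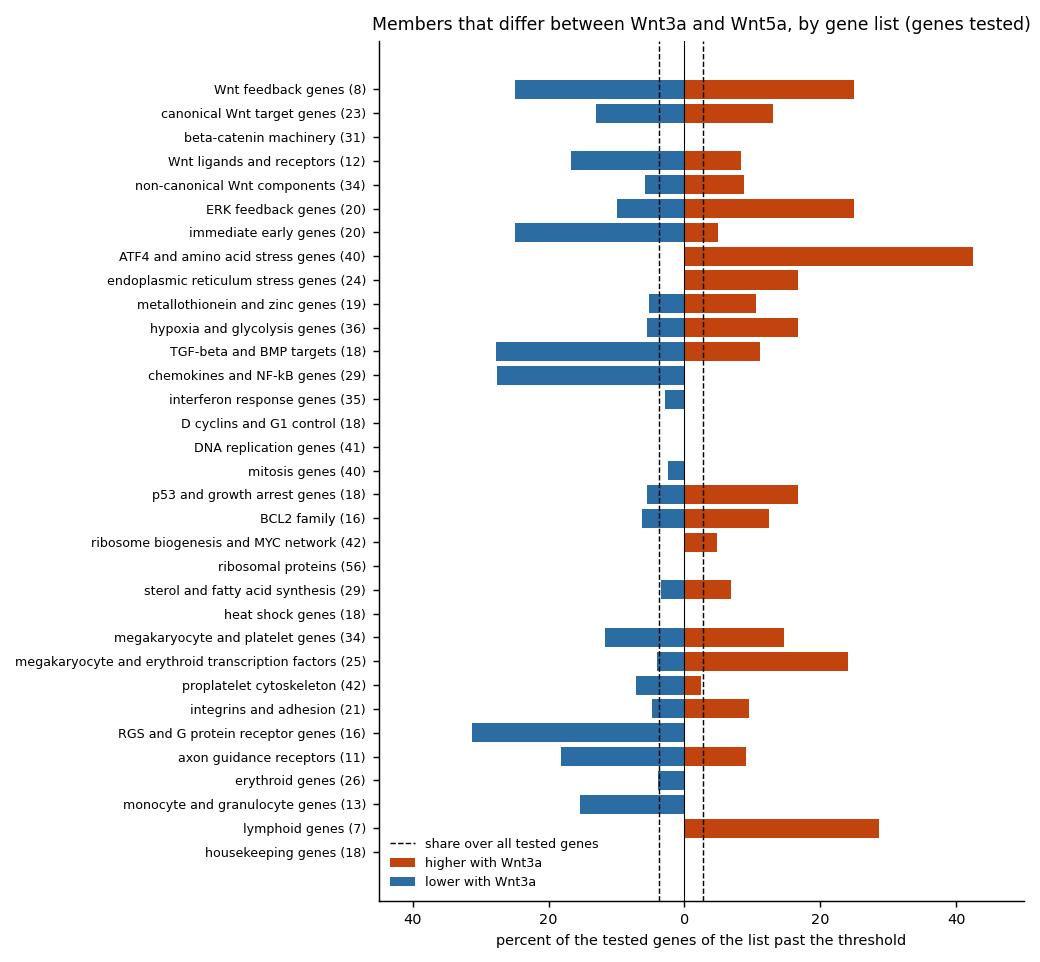
Percent of the tested genes of each list that were higher with Wnt3a (to the right of 0) or lower (to the left) at an adjusted p under 0.05. Brackets give the number of tested members. Dashed lines mark the shares over all tested genes, 2.76% higher and 3.76% lower. The lists were chosen with earlier results of these data known. The amino acid stress list has 17 higher and 0 lower of 40, and the chemokine and NF-kB list has 0 higher and 8 lower of 29.

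Of 40 tested genes of the ATF4 pathway, which cells induce when amino acids run short, 17 were higher with Wnt3a, 0 were lower and 23 did not pass. A positive difference was found in 37, and the median was 0.22. The count was 12 to 18 without any 1 array (12 without Wnt3a replicate 1, Wnt3a replicate 3 or Wnt5a replicate 3), and 9 on the first BeadChip alone, and the median was 0.25 on each BeadChip. Against untreated cells the median was -0.15 with Wnt3a and -0.35 with Wnt5a. DDIT4, an inhibitor of mTORC1, measured 11.51, 11.49 and 11.41 with Wnt3a and 10.75, 11.00 and 10.52 with Wnt5a (0.71 ± 0.08, adjusted p = 0.000312). The untreated arrays were higher than both (11.94, 11.91 and 11.83). CEBPB, a partner of ATF4 on DNA, measured 11.85, 11.76 and 11.79 with Wnt3a, 11.24, 11.32 and 11.09 with Wnt5a and 12.08, 11.84 and 11.94 in untreated cells (0.58 ± 0.07, adjusted p = 0.000209).

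TRIB3, a pseudokinase that restrains this pathway, measured 8.85, 8.68 and 8.69 with Wnt3a and 8.33, 8.22 and 8.02 with Wnt5a (0.55 ± 0.09, adjusted p = 0.00201), and the peptide hormone gene ADM2 differed by 0.63 ± 0.07 (adjusted p = 0.000215). CTH, which makes cysteine, differed by 0.67 ± 0.09 (adjusted p = 0.00101) by its brighter probe and by 0.34 by the other (adjusted p = 0.0641), and it was higher than untreated cells with Wnt3a (0.75, adjusted p = 0.00146). Asparagine synthetase, ASNS, measured 11.82, 11.63 and 11.59 with Wnt3a and 11.29, 11.44 and 11.20 with Wnt5a (0.37 ± 0.07, adjusted p = 0.00558), and the glutathione-degrading CHAC1 measured 6.25, 6.07 and 6.34 with Wnt3a and 5.92, 5.52 and 5.56 with Wnt5a (0.55 ± 0.12, adjusted p = 0.0196). ASNS and CHAC1 were named after their values were seen, for their promoters. The dimmer ASNS probe differed by 0.16 (adjusted p = 0.868). Of 24 tested endoplasmic reticulum stress genes, 4 were higher and 0 lower: XBP1 (0.61, adjusted p = 0.00051), HERPUD1 (0.43, adjusted p = 0.00136), the sensor kinase ERN1 (0.41, adjusted p = 0.00266) and DNAJB9 (0.28, adjusted p = 0.0478). DNAJB9 lost its call without any 1 of 11 arrays, up to an adjusted p of 0.19 without Wnt3a replicate 1.

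The promoters of 4 genes higher with Wnt3a are shown because each holds the letters TGATGNAA, the composite site of ATF4 and C/EBP proteins, on one of its strands. The bases are RefSeq's, build GRCh38.p14, 5′ to 3′ on the strand of the gene, with the match in capitals: ASNS at chr7:97872409-97872658 (minus strand), CHAC1 at chr15:40953221-40953470 (plus strand), ATF3 at chr1:212565157-212565406 (plus strand) and HERPUD1 at chr16:56931892-56932141 (plus strand). The match begins 68 bases before the annotated start in ASNS, 209 in CHAC1, 191 in ATF3 and 176 in HERPUD1.

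ASNS: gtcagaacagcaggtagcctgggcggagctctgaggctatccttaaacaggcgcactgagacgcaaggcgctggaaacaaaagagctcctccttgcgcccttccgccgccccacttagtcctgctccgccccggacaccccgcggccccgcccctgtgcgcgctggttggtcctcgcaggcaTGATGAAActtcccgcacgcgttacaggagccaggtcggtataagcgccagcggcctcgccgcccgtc

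CHAC1: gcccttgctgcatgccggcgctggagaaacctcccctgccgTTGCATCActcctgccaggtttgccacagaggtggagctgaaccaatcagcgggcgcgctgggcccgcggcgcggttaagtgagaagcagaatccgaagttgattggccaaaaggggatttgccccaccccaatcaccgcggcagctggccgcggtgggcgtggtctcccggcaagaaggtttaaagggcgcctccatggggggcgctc

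ATF3: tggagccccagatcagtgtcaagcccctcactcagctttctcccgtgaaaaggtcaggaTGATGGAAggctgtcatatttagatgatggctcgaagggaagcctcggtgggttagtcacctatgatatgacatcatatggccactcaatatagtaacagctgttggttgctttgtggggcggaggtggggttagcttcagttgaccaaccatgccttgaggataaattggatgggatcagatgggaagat

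HERPUD1: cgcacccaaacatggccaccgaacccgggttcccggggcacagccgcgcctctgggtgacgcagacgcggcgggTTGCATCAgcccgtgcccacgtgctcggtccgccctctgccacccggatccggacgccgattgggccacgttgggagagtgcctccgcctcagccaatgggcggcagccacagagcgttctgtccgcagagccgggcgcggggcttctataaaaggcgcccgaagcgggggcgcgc

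In windows of 300 bases, 250 before and 50 after the start, searched on both strands, TGATGNAA was found in 11 of 252 promoters of genes higher with Wnt3a (4.37%) and in 145 of 8148 promoters of all tested genes (1.78%). Of 17 stress genes higher with Wnt3a that had a promoter, 4 held it. The TCF and LEF letters CTTTGAT were found in 5 of 252 (1.98%) and in 121 of 8148 (1.49%). The other letters searched were below the share of all tested genes: TGCGCNC or TGCACNC of the metal response in 34.5% of promoters of genes higher with Wnt3a and 38.9% of all, GGCGCC of SMAD1 and SMAD5 in 29.0% and 30.2%, the E-box CACGTG in 7.94% and 10.6%, ACGTG of the hypoxia response, which lies within the E-box, in 25.4% and 27.8%, and GGAAGT of ETS factors in 20.6% and 29.7%. A match is a string of letters and does not show that a factor binds there. For genes lower with Wnt3a the search is void, because 308 of 401 (76.8%) had a promoter in the table, under the minimum of 80% set for such a check.

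One of the promoters with the TCF and LEF letters was that of MECOM, a transcription factor of blood stem cells and early megakaryocytes, at chr3:169663713-169663962 (minus strand). Its match, in capitals and on the opposite strand, begins 38 bases before the start.

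MECOM: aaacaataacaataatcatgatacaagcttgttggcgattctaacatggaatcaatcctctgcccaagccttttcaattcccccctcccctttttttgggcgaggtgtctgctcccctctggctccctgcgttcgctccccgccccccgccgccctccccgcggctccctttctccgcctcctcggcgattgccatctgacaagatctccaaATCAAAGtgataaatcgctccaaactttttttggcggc

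MECOM measured 9.06, 8.95 and 9.18 with Wnt3a and 8.43, 8.42 and 8.48 with Wnt5a (0.62 ± 0.07, adjusted p = 0.000303). It was above untreated cells with Wnt3a (0.69, adjusted p = 0.000374) and at 0.07 with Wnt5a (adjusted p = 0.721). Of 25 tested transcription factors of megakaryocytes and red cells, 6 were higher and 1 lower with Wnt3a, and the higher count was 5 or 6 without any 1 array. HHEX, a homeobox factor of early blood cells, measured 9.94, 10.06 and 9.95 with Wnt3a and 9.22, 9.33 and 9.19 with Wnt5a (0.73 ± 0.07, adjusted p = 5.94e-05), with untreated cells between (9.75, 9.66 and 9.77). LMO2, a bridging factor of the GATA1 complex (0.57, adjusted p = 0.000733), and ETS1 (0.57, adjusted p = 0.000524) were higher too, ETS1 by both probes. GFI1B, a repressor needed for platelet and red cell formation, differed by 0.40, adjusted p = 0.00887 and lost its call without Wnt3a replicate 1 (adjusted p = 0.0524) or Wnt5a replicate 3 (adjusted p = 0.0546).

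Platelet and megakaryocyte genes did not share a direction: of 34 tested, 5 were higher and 4 lower with Wnt3a, with a median of -0.03. The matrix protein THBS1 (-0.41, adjusted p = 0.00251), the tetraspanin CD9 (-0.35, adjusted p = 0.00431) and the thrombin receptor F2RL3 (-0.33, adjusted p = 0.00995) were lower with Wnt3a. F2RL3 lost its call without Wnt3a replicate 1 (adjusted p = 0.0652) or Wnt5a replicate 3 (adjusted p = 0.0588), and a second CD9 probe differed by -0.13 (adjusted p = 0.69). The largest on the higher side, the platelet glycoprotein GP5 (0.51, adjusted p = 0.0454), lost its call without any 1 of 9 arrays, up to an adjusted p of 0.165. Without Wnt5a replicate 3, 0 genes of this list were higher and 2 lower. Of 42 genes of the proplatelet cytoskeleton, MAP1B alone was higher and 3 were lower, with SPTBN1 the largest (-0.79, adjusted p = 0.00721), whose second probe differed by -0.27 (adjusted p = 0.317).

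Chemokine and NF-kB genes were lower with Wnt3a in 8 and higher in 0 of 29 tested, with a median of -0.13; without any 1 array 6 to 9 were lower, and 1 was higher without Wnt3a replicate 1 or Wnt5a replicate 2. CCL2, which attracts monocytes, measured 10.93, 10.89 and 10.87 with Wnt3a and 11.79, 11.75 and 11.71 with Wnt5a (-0.85 ± 0.06, adjusted p = 4.03e-06). The untreated arrays (11.37, 11.24 and 11.26) lay between the ligands, and CCL2 passed against them in both directions, at -0.39 with Wnt3a (adjusted p = 0.00406) and 0.46 with Wnt5a (adjusted p = 0.000532). NFKBIA, the inhibitor that NF-kB itself induces, measured 10.14, 10.06 and 10.07 with Wnt3a and 10.70, 10.61 and 10.71 with Wnt5a (-0.58 ± 0.07, adjusted p = 0.000459). CCL4L1 (-1.47, adjusted p = 1.13e-05) and CCL4L2 (-1.29, adjusted p = 2.33e-05) are near-identical copies of CCL4 that these probes may not tell apart, and they were detected on 2 and 1 Wnt3a arrays and on 3 Wnt5a arrays each. CCL3 (-0.95, adjusted p = 0.000371) was detected on 1 Wnt3a and 3 Wnt5a arrays. Of 13 tested monocyte and granulocyte genes, which many of these genes are known from, 0 were higher and 2 lower with Wnt3a, CSF2RA (-0.46, adjusted p = 0.00884) and SPI1 (-0.29, adjusted p = 0.0222), and both lost the call without Wnt3a replicate 1 or Wnt5a replicate 3. The summed intensity of the 13 was 6270 to 6586 on the Wnt3a arrays and 6804 to 7053 on the Wnt5a arrays, with MPO, ELANE and S100A8 detected on 0, and their part in the chemokine differences was not tested.

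Regulators and receptors of G protein signalling were lower with Wnt3a in 5 and higher in 0 of 16 tested, with a median of -0.16 and 4 or 5 lower without any 1 array. GRK5 measured 7.05, 6.94 and 6.81 with Wnt3a and 8.16, 8.21 and 8.43 with Wnt5a (-1.33 ± 0.09, adjusted p = 3.61e-06). GPR183, a receptor for oxysterols that guides immune cells, measured 6.32, 6.30 and 6.23 with Wnt3a and 7.48, 7.30 and 7.82 with Wnt5a, and both its probes passed (-1.25 ± 0.10, adjusted p = 1.42e-05). RGS2, which shortens signals of Gq proteins, measured 7.27, 7.58 and 7.81 with Wnt3a and 8.71, 8.48 and 9.04 with Wnt5a (-1.19 ± 0.10, adjusted p = 2.78e-05). All of these stood lower on the Wnt3a arrays, and non-overlap was a condition of their choice. RGS19 was also lower (-0.39, adjusted p = 0.00285), and RGS12 (-0.31, adjusted p = 0.0211) lost its call without any 1 of 5 arrays, up to an adjusted p of 0.0922 without Wnt3a replicate 2.

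Targets of TGF-beta and BMP signals were lower with Wnt3a in 5 and higher in 2 of 18 tested, with a median of -0.16, and 3 were lower without Wnt3a replicate 1 or Wnt5a replicate 2. ID3, an inhibitor of basic helix-loop-helix factors induced by BMPs, measured 6.75, 6.73 and 6.68 with Wnt3a and 7.91, 7.83 and 7.80 with Wnt5a (-1.12 ± 0.08, adjusted p = 1.06e-05). SMAD6, the inhibitory SMAD of the BMP pathway, measured 10.62, 10.64 and 10.69 with Wnt3a and 11.64, 11.43 and 11.52 with Wnt5a (-0.88 ± 0.07, adjusted p = 1.13e-05). ID3 stayed near untreated cells with Wnt3a (-0.07, adjusted p = 0.82), whereas SMAD6 was below them with Wnt3a (-0.32, adjusted p = 0.034) and above them with Wnt5a (0.56, adjusted p = 0.000436). The TGF-beta co-receptor ENG was lower (-0.39, adjusted p = 0.00512). LRRC32, which holds latent TGF-beta on the cell surface (0.81, adjusted p = 0.000306), and the transcriptional repressor HEY1 (0.75, adjusted p = 0.000371) were higher.

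Immediate early genes, which respond within minutes to growth signals, were lower with Wnt3a in 5 and higher in 1 of 20 tested, and 17 of the 20 differences were negative (median -0.15). The lower count was 3 without Wnt3a replicate 3, Wnt5a replicate 2 or Wnt5a replicate 3. The nuclear receptor NR4A2 (-0.57, adjusted p = 0.00336), by 1 of 2 probes, and the AP-1 subunit JUNB (-0.38, adjusted p = 0.00999) were lower with Wnt3a. JUNB lost its call with the BeadChip as a random block (adjusted p = 0.0679) or without a BeadChip term (adjusted p = 0.148). EGR2 (-0.60, adjusted p = 0.00925), detected on 1 Wnt3a array, lost its call without Wnt5a replicate 2 (adjusted p = 0.0598). The stress factor ATF3 went the other way and measured 8.39, 8.28 and 8.21 with Wnt3a and 7.82, 7.90 and 7.52 with Wnt5a (0.55 ± 0.08, adjusted p = 0.00145). Against untreated cells (8.57, 8.55 and 8.59) it was at -0.28 with Wnt3a (adjusted p = 0.149) and at -0.83 with Wnt5a (adjusted p = 0.000109).

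ERK feedback genes split, with 5 higher and 2 lower with Wnt3a of 20 tested and a median of 0.04. Besides SPRY1, RASA1, which switches off RAS, was higher (0.33, adjusted p = 0.0065), and the phosphatases DUSP2 (-0.53, adjusted p = 0.00172) and DUSP10 (-0.38, adjusted p = 0.00742, 1 of 3 probes) were lower. Without Wnt3a replicate 1, Wnt3a replicate 3, Wnt5a replicate 2 or Wnt5a replicate 3, 2 of the list were higher, and without untreated replicate 3 or combination replicate 3, 3 were.

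Of 36 tested hypoxia and glycolysis genes, 6 were higher and 2 lower with Wnt3a, EPAS1 among the higher. The median of the list was 0.03, and the lower count was 1 without any 1 of the 6 Wnt3a and Wnt5a arrays. ADM, the vasodilator adrenomedullin, measured 8.92, 8.71 and 8.63 with Wnt3a and 7.91, 7.84 and 7.77 with Wnt5a (0.92 ± 0.08, adjusted p = 2.34e-05). Hexokinase HK2 (0.67, adjusted p = 4e-04), by both probes, and the glucose transporter SLC2A1 (0.61, adjusted p = 0.000819) were higher, and the lactate exporter SLC16A3 was lower (-0.33, adjusted p = 0.0074). HK2 was at -0.12 from untreated cells with Wnt3a (adjusted p = 0.62) and at -0.79 with Wnt5a (adjusted p = 0.00016).

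Genes of cell death split within the BCL2 family. The BH3-only genes BIK (0.78, adjusted p = 0.000306) and PMAIP1 (0.57, adjusted p = 0.00456) were higher with Wnt3a, and BMF (-0.65, adjusted p = 6.75e-05), of the same class, was lower by both probes. A second PMAIP1 probe differed by 0.41 and did not pass (adjusted p = 0.0888). The growth arrest gene GADD45A was higher by both probes (0.57, adjusted p = 0.000226). EFNB1, the ephrin ligand, was above untreated cells with both ligands, at 0.93 with Wnt3a (adjusted p = 1.32e-05) and 0.44 with Wnt5a (adjusted p = 0.0017), and was higher with Wnt3a (0.49, adjusted p = 0.00066). CD2, an adhesion receptor of T cells, was higher with Wnt3a as well (0.60, adjusted p = 0.00118), in cells where CD3D and CD3E were detected on 0 arrays.

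None of 41 DNA replication genes, 18 D cyclin and G1 genes, 56 ribosomal protein genes, 18 heat shock genes and 18 housekeeping genes passed in limma, with list medians of 0.07, 0.10, 0.01, 0.02 and 0.05. In the same order, 6, 5, 1, 2 and 1 had an unadjusted p under 0.05, and limma called 2, 1, 0, 0 and 0 on the deposited table. Of 40 mitosis genes, the checkpoint kinase BUB1 alone passed (-0.35, adjusted p = 0.00721), and it lost its call without Wnt3a replicate 1 (adjusted p = 0.056). Of 35 interferon response genes IFIT3 alone passed (-0.34, adjusted p = 0.0218), by 1 of 3 probes, and it lost its call without Wnt3a replicate 1, Wnt3a replicate 2, Wnt5a replicate 2 or Wnt5a replicate 3 (adjusted p = 0.0959 to 0.113). Of 26 erythroid genes HBZ alone passed. Of 7 tested lymphoid genes, 2 were higher and 0 lower, CD2 and PRF1, and PRF1 (0.32, adjusted p = 0.0408) lost its call without any 1 of 9 arrays, up to an adjusted p of 0.198 without Wnt3a replicate 1. The remaining lists held 2 higher and 1 lower of 19 metallothionein and zinc genes, 2 and 1 of 29 sterol and fatty acid genes, 2 and 1 of 21 integrin and adhesion genes, 2 and 0 of 42 genes of ribosome biogenesis and the MYC network, 3 and 1 of 18 p53 and growth arrest genes, and 1 and 2 of 11 genes listed with axon guidance. Without 1 array, the higher count was 0 for the zinc list without Wnt3a replicate 2, Wnt3a replicate 3, Wnt5a replicate 1 or Wnt5a replicate 3, 0 for the sterol list without Wnt5a replicate 3, 0 for the integrin list without Wnt3a replicate 1 or Wnt5a replicate 3, and 5 for the ribosome list without Wnt5a replicate 1. The last list held EFNB1, UNC5B and VASH1, and VASH1 is not itself a guidance receptor.

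Some genes moved the same way with both ligands against untreated cells, which share those arrays, and 6 with the largest such changes were set against each other. PTH2, a neuropeptide gene, was at 1.57 with Wnt3a and 1.37 with Wnt5a, and the direct difference was 0.19 (95% interval 0.02 to 0.36, adjusted p = 0.212). The calcium-binding NCALD was at 0.87 with Wnt3a and 1.06 with Wnt5a (difference -0.19, interval -0.37 to -0.01). The metallothionein MT1X was at -0.68 with Wnt3a and -0.91 with Wnt5a (difference 0.23, interval 0.00 to 0.46). The complement receptor C5AR1 was at -0.84 with Wnt3a and -0.64 with Wnt5a (difference -0.19, interval -0.39 to 0.00). FLJ11235 (0.00, interval -0.18 to 0.18) and the sodium pump subunit ATP1B1 (0.12, interval -0.11 to 0.35) completed the set, and another ATP1B1 probe was higher with Wnt3a by 0.47. None of the 6 probes passed between the ligands, which does not show that the ligands act alike on them.

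A few probes were detected on all arrays of 1 ligand and on 0 of the other. A set of 28 probes was detected on 3 of 3 Wnt3a and 0 of 3 Wnt5a arrays, of which 15 passed (53.6%), and 25 were detected on 0 of 3 Wnt3a and 3 of 3 Wnt5a arrays, of which 13 passed (52%). Over all tested probes, 5.9% passed. Detection and level come from the same signals, so a larger share past the threshold follows from how these probes were chosen. Besides IRS1 and MAP1B, the brightest of the first set with a gene symbol were the adaptor CASS4 (at least 1.48-fold higher with Wnt3a, adjusted p = 0.000213), the polysialyltransferase ST8SIA4 (at least 1.43-fold, adjusted p = 0.00175) and the lipid-hydrolysing NAPEPLD (at least 1.37-fold, adjusted p = 0.00543). CASS4 and ST8SIA4 were detected on 1 and 2 combination arrays and 0 untreated arrays, so they met the detection filter only through the Wnt3a arrays. Besides HBZ, UNC5B and CCDC46, the brightest of the second set with a gene symbol were the calcium release channel RYR1 (at least 1.45-fold lower with Wnt3a, adjusted p = 1.89e-05) and the desmosomal protein EVPL (at least 1.40-fold lower, adjusted p = 0.00431).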

How the data were processed

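RNA of 12 CHRF288-11 cultures was hybridised to Illumina HumanWG-6 v3 arrays on 2 BeadChips. The authors deposited non-normalised probe intensity values with a detection score, a fraction that the file headers give for each probe and array, and a table of processed log2 values, per the file headers and values. The submitters' processing notes name lumi, with no version, and the steps of its background treatment and normalization are not given in the sources used here.

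Background was corrected with limma 3.58.1 (R 4.3.3) by normexp, with negative-control values inferred from the detection scores (759 controls implied, offset 16), and intensities were quantile-normalised and taken to log2. Probes with a score above 0.99 on at least 3 of 12 arrays were tested by lmFit and eBayes with 4 group means and the BeadChip as a term, two-sided, with Benjamini-Hochberg adjustment over all 14051 probes and a threshold of 0.05. The residual degrees of freedom were 7, plus 5.04 from the prior. Of the tested probes, 11758 were named from the platform annotation, 1248 from the deposited file alone, 2 had several genes and 1043 none. A gene is given by its brightest tested probe in lists. Of 220 genes called with several tested probes, all probes passed in 53, and probes disagreed in sign in 41.

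Named genes were the 15 largest differences in each direction without overlap between the ligands, up to 5 passing members of each list, the tested Wnt feedback genes, MYC, LEF1, CCND1, CTNNB1, AXIN1 and the FZD, LRP and NFAT genes, 6 genes moved by both ligands and up to 5 probes detected with 1 ligand. Members, lists and this rule were chosen with earlier results of these data known. Promoters came from a RefSeq table of GRCh38.p14. The code was tested on simulated data. Alternatives varied background, normalization, filter, BeadChip term, arrays used and array weights. Results for a few genes of the marker and gene lists are not reported here.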

Additional observations from a re-analysis of the deposited data

How the results depend on the processing

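The number of probes past the threshold depended on the settings. None of the 119 named genes past the threshold changed sign in the settings run. They passed on these same arrays, which every setting uses in whole or in part, so their signs are not independent of the choice. Counts within short gene lists moved as well: without Wnt5a replicate 3 the megakaryocyte and platelet list had 0 higher and 2 lower, against 5 and 4. Against 829 probes (363 higher and 466 lower with Wnt3a), testing all 48803 probes gave 515 (221 and 294), the 6 Wnt3a and Wnt5a arrays alone 540 (242 and 298), the first BeadChip alone 313 (152 and 161), a test against a 1.2-fold change 132 (62 and 70) and array weights 1846 (858 and 988). Leaving out 1 array gave 422 to 886 probes, 193 to 384 higher and 229 to 502 lower. The replicate number as a block gave 1011 (431 and 580). The deviations of same-numbered arrays correlated at 0.406, 0.295 and -0.0322 for numbers 1, 2 and 3. These values do not settle whether the numbers pair the arrays. Of 119 named genes past the threshold, 86 kept the call without any 1 array and 55 under every setting tested. Probes near background carry the least certain sizes.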
